A study of Homo sapiens with 6 samples.

Results

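The RNA levels of 9 genes used as markers of stem-like cells were compared between parental and drug-tolerant lung cancer cells. The genes are CD24, CD44, PROM1 (the antigen CD133), KIT, THY1, LGR5, NGFR, KLF4 and BMI1. They were taken by symbol, as 9 of the 36459 gene symbols in the count table, and all 9 were listed there. The transcripts of CD44 and CD24 were read from the matching transcript table. Both groups were cultures of PC9, an established human non-small cell lung cancer (NSCLC) line, and each had 3 libraries. Parental cells received no erlotinib and are called PC9. Persister cells, called PSPC9, had spent 6 days in erlotinib at 15 µM, a drug that blocks the EGFR kinase, when they were collected. The 3 PC9 libraries came from 3 independent cultures, whereas 9 separately treated cultures were combined into the 3 PSPC9 libraries. A pool averages over its cultures, and all values describe 1 cell line at 1 dose and 1 time.

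Stem-like markers are proteins by which cells able to renew themselves and found new growth have been recognised in normal tissue and in tumours. Most sit on the cell surface, where antibodies can reach them, and serve there in adhesion or as receptors of growth signals. Others act in the nucleus on transcription or chromatin. No single one defines such a cell, and many of them are also made by ordinary epithelium.

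Each library held between 29476725 and 34893782 gene counts, and 14626 genes had enough counts to be tested. A gene or transcript was called changed at an adjusted p under 0.01, and fold changes are PSPC9 over PC9 on the log2 scale. The 6 epithelial marker genes of the cell type check summed to between 7519 and 8051 CPM in PC9 libraries and to between 5936 and 6298 in PSPC9 libraries (CPM, library-scaled counts with TMM normalization). The 5 leukocyte genes summed to at most 1.42 CPM in any library, with CD3E at 0. The 5 fibroblast genes summed to between 10.4 and 11.02 CPM in PC9 and to between 27.4 and 30.8 in PSPC9, nearly all of it COL1A1, with COL3A1 at 0. The 5 endothelial genes summed to between 8.28 and 8.9997 CPM in PC9 and to between 3.73 and 4.27 in PSPC9, and the 5 melanocyte genes to between 36.7 and 38.7 CPM in all libraries, with SOX10 at 0. The part of these differences in the results was not tested. Since whole cultures were sequenced, fewer cells with a transcript and less RNA per cell cannot be told apart.

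The 9 markers fell into 4 that were abundant and 5 that were at or near 0. CD24, KLF4 and BMI1 rose in PSPC9, CD44 fell, and LGR5 was nearly absent from PC9 and low in PSPC9. PROM1, KIT, THY1 and NGFR had too few counts for the test. In edgeR's quasi-likelihood test 4 of the 5 tested markers were called higher and 1 lower, and the libraries of the 2 groups did not overlap for any of the 5. Among all genes tested 56.8% were called, 28.7% higher and 28.1% lower, and 71.3% had groups that did not overlap. A call was therefore the common outcome in these libraries. LGR5 passed the filter on low counts through the PSPC9 libraries alone.

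**Figure D1:**
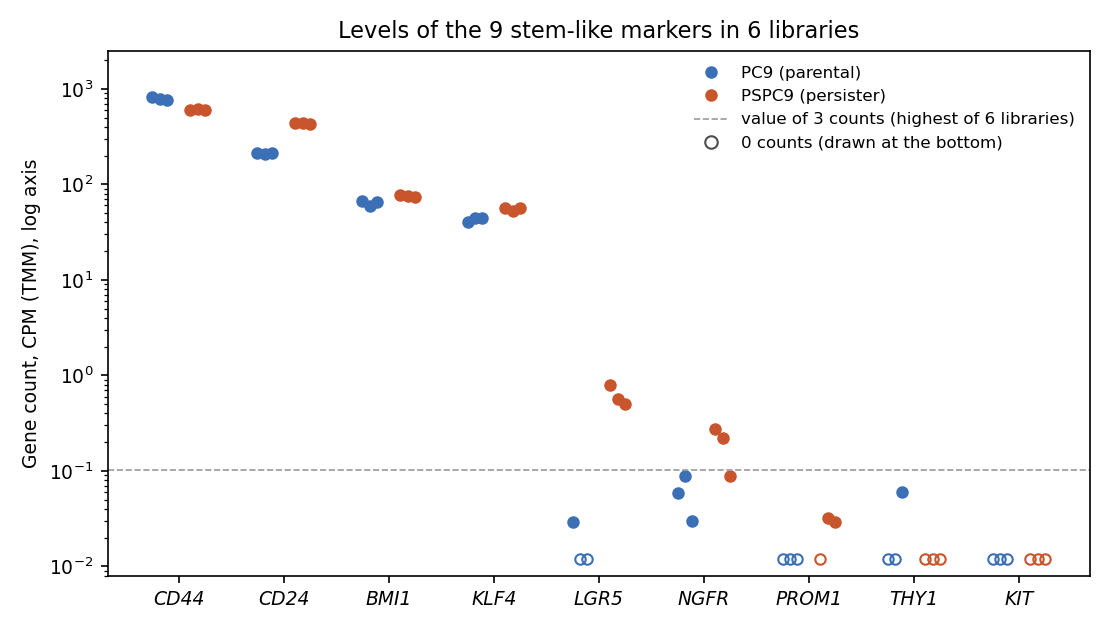
Gene counts of the 9 markers in each of the 6 libraries, in CPM on a log axis, with PC9 in blue and PSPC9 in orange. CD44, CD24, BMI1 and KLF4 lie between 40.2 and 818 CPM in every library, whereas the other 5 markers stay under 1 CPM, and open circles are libraries with 0 counts.

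Levels of different genes can be compared only per length, and on that scale (TPM, from annotated transcript lengths) the order was the same in both groups. In PC9, CD44 stood highest at 657 ± 21.2 TPM (SD, n = 3), followed by CD24 at 191 ± 2.56, BMI1 at 57.9 ± 3.19 and KLF4 at 28.7 ± 1.97. In PSPC9 the same 4 genes stood at 503 ± 11.3, 415 ± 6.32, 71.1 ± 2.44 and 38.2 ± 2.48 TPM. No 2 neighbours among these 4 overlapped between libraries of one group. By mean TPM over 36074 genes, CD44 ranked 202 in PC9 and 260 in PSPC9, and CD24 moved from rank 795 to rank 324. The distance between the 2 leading surface markers narrowed. CD24 had 0.276, 0.297 and 0.299 TPM for each TPM of CD44 in the 3 PC9 libraries, and 0.824, 0.807 and 0.843 in the 3 PSPC9 libraries. The groups did not overlap, with a mean ratio of 0.291 ± 0.0129 against 0.824 ± 0.0179 (two-sided exact permutation p = 0.1, the smallest that 3 against 3 libraries allow). Among the low markers LGR5 was at most 0.0132 TPM in PC9, where NGFR ran from 0.0167 to 0.04997 TPM. In PSPC9, LGR5 ran from 0.228 to 0.389 TPM and NGFR from 0.0505 to 0.198, so their order was reversed, but these values rest on few counts.

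CD44 is the main receptor for hyaluronan, a sugar polymer of the extracellular matrix, and one of the most used surface markers of stem-like carcinoma cells. The gene (ENSG00000026508) lies on the plus strand at chr11:35138882-35232402 (hg38). Its level in PC9 libraries 1, 2 and 3 was 818, 773 and 769 CPM, and in PSPC9 libraries 603, 619 and 593 CPM. Every PSPC9 library was below every PC9 library. The mean fell from 787 ± 27.1 to 605 ± 12.9 CPM (SD, n = 3), a log2 fold change of -0.38 with a standard error of 0.037 (edgeR adjusted p = 4.75e-06). CD44 was the most abundant of the 9 markers per length in both groups.

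CD44 RNA is spliced in alternative ways. Between constant exon 5 and the next constant exon lies a block of variable exons, numbered v2 to v10 in human, any of which can be added to the part of the protein outside the cell. CD44-201 carries none of them and encodes the standard form. CD44-206 carries v3 to v10, CD44-208 carries v2 to v10, and CD44-209 carries v8, v9 and v10, the form typical of epithelium. The junctions by which these 4 complete transcripts leave constant exon 5 are shown because they are what sets the transcripts apart. Each is 30 bases of hg38 on the plus strand of chromosome 11, with the last 15 bases of exon 5 in lower case and the first 15 bases of the exon joined to it in capitals.
CD44-201, exon 5 to the next constant exon: gaatccctgctaccaGAGACCAAGACACAT
CD44-206, exon 5 to v3: gaatccctgctaccaGTACGTCTTCAAATA
CD44-208, exon 5 to v2: gaatccctgctaccaCTTTGATGAGCACTA
CD44-209, exon 5 to v8: gaatccctgctaccaATATGGACTCCAGTC

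The 3 variable exons of CD44-209 are shown whole, since the largest fall in CD44 counts, in CPM, was in this transcript and CD44-206 and CD44-208 carry them too. Exon v8 has 102 bases at chr11:35208105-35208206, v9 has 90 bases at chr11:35209965-35210054, and v10 has 204 bases at chr11:35211246-35211449 (hg38, plus strand).
CD44 v8: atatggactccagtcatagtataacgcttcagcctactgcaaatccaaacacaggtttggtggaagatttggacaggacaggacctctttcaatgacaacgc
CD44 v9: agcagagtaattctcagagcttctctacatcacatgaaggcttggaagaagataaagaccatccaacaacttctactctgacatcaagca
CD44 v10: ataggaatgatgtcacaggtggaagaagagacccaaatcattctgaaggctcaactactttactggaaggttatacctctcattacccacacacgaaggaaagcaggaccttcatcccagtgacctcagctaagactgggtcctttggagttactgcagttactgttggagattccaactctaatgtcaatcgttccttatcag

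Of the 38 CD44 transcripts listed, 7 held at least 1% of the gene's counts in either group and together took 96.1% of them in PC9 and 96.7% in PSPC9. A further 28 were minor and 3 were at 0 in every library. CD44-209 was the leading transcript in PC9, at 316, 295 and 301 CPM, and stood at 149, 158 and 152 CPM in PSPC9. The groups were far apart, and the mean fell from 304 ± 10.6 to 153 ± 4.69 CPM, a log2 fold change of -0.99 with a standard error of 0.040 (edgeR transcript test, adjusted p = 8.44e-05). Among 54499 transcripts tested 7.80% were called, 3.89% higher and 3.91% lower. CD44-206 stood at 213, 209 and 199.9 CPM in PC9 and at 169.9, 177 and 161 CPM in PSPC9. These libraries did not overlap either, and the log2 fold change was -0.29 with a standard error of 0.046 (adjusted p = 0.00958). That call was lost without any one of the 6 libraries, where the fold change stayed between -0.33 and -0.26.

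CD44-201, the standard form, did not pass the test. It ran at 185, 206 and 197 CPM in PC9 and at 192, 189 and 175 CPM in PSPC9, so the groups overlapped, with a log2 fold change of -0.08 and a standard error of 0.057 (adjusted p = 0.424). CD44-208 had 42.7, 24.5 and 28.9 CPM in PC9 against 43.2, 43.2 and 56.0 CPM in PSPC9. Its PSPC9 libraries were all above the PC9 libraries, though PC9 library 1 was nearly level with PSPC9 libraries 1 and 2, and the log2 fold change of 0.57 with a standard error of 0.226 did not pass the limit (adjusted p = 0.165). The 3 remaining named entries were a fragment with v6 to v10 (CD44-231), a retained intron (CD44-238) and a 2-exon fragment of the 3′ end (CD44-218). CD44-218 stood at 0.556, 0 and 0.0907 CPM in PC9 and at 8.96, 8.04 and 5.44 CPM in PSPC9. The groups did not overlap, yet the transcript test gave an adjusted p of 0.0264, and the only CD44 transcripts called at the limit were 3 that fell. The third of these, CD44-236, was a minor one that went from 4.79 to 1.34 CPM, a larger fall on the log2 scale than that of CD44-209.

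**Figure D2:**
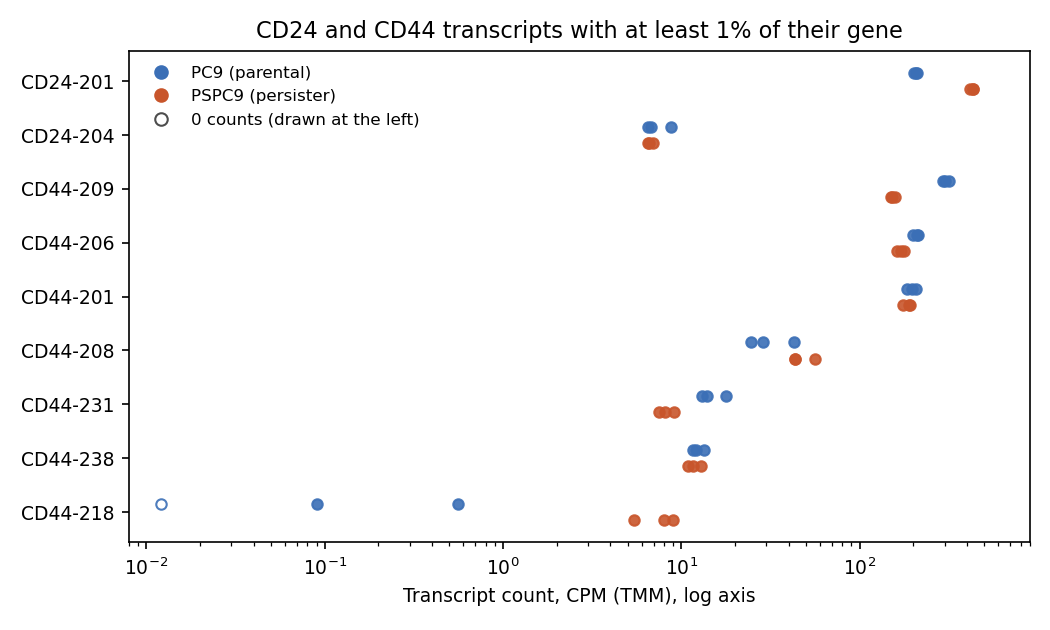
Counts of the 2 CD24 and 7 CD44 transcripts that hold at least 1% of their gene, in CPM on a log axis, with 3 libraries per group. CD24-201 and CD44-209 separate the groups in opposite directions, whereas CD24-204, CD44-201 and CD44-238 overlap.

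Whether the transcripts of CD44 changed by different amounts was tested directly, as a change in transcript usage within the gene. With edgeR's test of usage CD44 had a Simes adjusted p of 6.12e-10 and was ninth in order of p among 10545 genes with several tested transcripts, of which 1.88% passed. The 3 CD44 transcripts past the limit in the usage test were CD44-218, CD44-208 and CD44-209. Relative to the gene's other transcripts CD44-209 changed by -0.58 on the log2 scale (adjusted p = 0.00131), CD44-208 by 0.97 (adjusted p = 1.95e-05) and CD44-218 by 5.49 (adjusted p = 1.03e-10). CD44-218 had the smallest p of these, and this p set the Simes p and the order of the gene. The transcript passed the filter on low counts through the PSPC9 libraries alone. Its value, that Simes p and that order are therefore a description. With CD44-218 left out, an alternative added after seeing the data, the Simes adjusted p of CD44 was 6.02e-05 and the gene was number 50 in order of p, with CD44-209 at -0.57 (adjusted p = 0.00220) and CD44-208 at 0.99 (adjusted p = 1.17e-05). The usage adjusted p of CD44, with CD44-218 included where it passed the filter, was at most 1.05e-04 when each library was left out in turn. The last exon of CD44-201 and CD44-208 has 3274 bases, that of CD44-209 has 899 and that of CD44-206 has 340, so the choice of variable exons and of the 3′ end differ together among these transcripts and cannot be told apart here.

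As shares of the gene, CD44-209 held 38.3%, 37.5% and 38.4% of CD44 transcript counts in PC9 libraries 1, 2 and 3 and 24.9%, 25.7% and 25.7% in PSPC9 libraries. CD44-201 held 22.4%, 26.2% and 25.2% in PC9 and 31.9%, 30.7% and 29.5% in PSPC9. The leading transcript thus passed from CD44-209 to CD44-201 by counts, with no overlap between the groups for either share. CD44-206 kept 26.0% ± 0.502 in PC9 and 28.1% ± 0.759 in PSPC9, and CD44-208 held 3.998% ± 1.07 and 7.89% ± 1.36. A longer transcript yields more counts per molecule, and after division by annotated length CD44-209 led in PC9 with 37.9% ± 0.404 and had 26.3% ± 0.320 in PSPC9, below CD44-206 at 28.1% ± 0.782. On that scale CD44-201 held 13.1% ± 1.27 and 17.0% ± 0.767. The annotated versions of CD44-201 and CD44-208 were not those of the deposited table, so their lengths may differ.

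**Figure D3:**
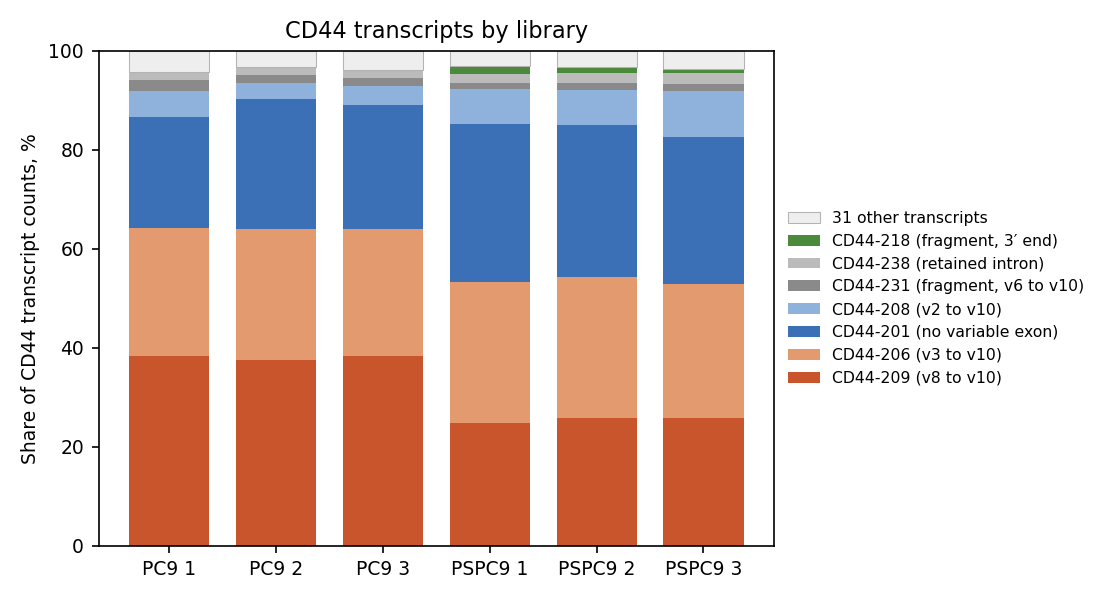
Share of CD44 transcript counts held by each named transcript in each library, in percent, as stacked bars that add up to 100%. The share of CD44-209 at the foot of the bars is between 37.5% and 38.4% in PC9 and between 24.9% and 25.7% in PSPC9.

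Among the 4 complete transcripts alone, the standard form took 24.4%, 28.1% and 27.1% of counts in PC9 and 34.6%, 33.3% and 32.1% in PSPC9. The ratio of CD44-209 to CD44-201 counts was 1.71, 1.43 and 1.53 in PC9 and 0.779, 0.837 and 0.872 in PSPC9, above 1 in every PC9 library and below 1 in every PSPC9 library. The means were 1.56 ± 0.142 and 0.829 ± 0.0469. This is a ratio of counts that were not divided by length. Per annotated length CD44-209 stayed above CD44-201 in both groups. Their shares of CD44 were 37.9% and 13.1% in PC9 and 26.3% and 17.0% in PSPC9. The 2 transcripts with the long 3′ end, CD44-201 and CD44-208, together took 30.9% ± 0.712 of these counts in PC9 and 41.9% ± 0.832 in PSPC9. The standard share, the count ratio and the long 3′ end share each separated the groups completely. Each had a two-sided exact permutation p of 0.1, which is the smallest that 3 against 3 libraries can give.

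The proteins that choose CD44's variable exons were read from a list of 14 splicing factors, all of which were tested. Of these 6 rose, 4 fell and 4 did not pass, that is 71.4% called beside 56.8% of all genes. ESRP1, an epithelial factor known to favour inclusion of CD44 variable exons, fell from 286 ± 2.10 to 230 ± 2.50 CPM (log2 fold change -0.31, adjusted p = 7.45e-06). HNRNPM, which is known to favour skipping of those exons, rose by 0.49 (adjusted p = 3.91e-07). HNRNPA1, known to repress such inclusion, fell by 0.70, and TRA2B, known to favour it, rose from 149 ± 6.56 to 186 ± 3.50 CPM (log2 fold change 0.32, adjusted p = 4.12e-05). Factors of either known effect were thus found among those that rose and those that fell. SRSF1 and PTBP1 rose by 0.56 and 0.39 on the same scale. The paralogue ESRP2 had a log2 fold change of -0.02 and did not pass.

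The other lists around CD44 held its ligands, its links to the cytoskeleton with their relative NF2, and the proteases that cut it. Of the 12 genes of hyaluronan and CD44 ligands 8 were tested, 3 fell and 5 did not pass, so 37.5% were called beside 56.8% of all genes. In edgeR, DESeq2 and limma voom 0 of the 8 were called higher, and 1 had a positive fold change with an unadjusted p under 0.05 in edgeR. The osteopontin gene SPP1, whose product binds CD44, fell from 317 ± 24.8 to 214 ± 8.13 CPM, and the hyaluronan synthase HAS3 from 2.08 ± 0.171 to 0.924 ± 0.0693 CPM. Of 4 listed genes, MSN, EZR and RDX encode proteins that tie CD44 to the actin cytoskeleton, and NF2 encodes a relative of these. NF2 and MSN rose by 0.52 and 0.23. EZR fell by 0.14 on the log2 scale, a call that was lost without PC9 library 1 or 3 or PSPC9 library 1 or 3, and RDX did not pass. Of 9 tested proteases that cut CD44, 4 rose and 0 fell in edgeR, DESeq2 or limma voom, where 2 had a negative fold change with an unadjusted p under 0.05 in edgeR. The called share was 44.4%, and 2 were called lower with upper quartile normalization, with library size alone or at a limit of 0.05, and 1 with the replicate block or without PC9 library 1. Among those that rose were the membrane protease MMP14 (log2 fold change 0.65), the sheddase ADAM10 (0.41) and the gamma-secretase gene PSEN2 (0.55).

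CD24 encodes a small, heavily glycosylated protein held to the membrane by a lipid anchor, which binds P-selectin and Siglec-10 on other cells. The gene (ENSG00000272398) lies on the minus strand at chr6:106969831-106975627 (hg38). Its level was 214, 207 and 215 CPM in PC9 libraries 1, 2 and 3 and 443, 443 and 431 CPM in PSPC9 libraries. All PSPC9 libraries were well above all PC9 libraries, and libraries within a group differed little. The mean rose from 212 ± 4.62 to 439 ± 6.94 CPM, a log2 fold change of 1.05 with a standard error of 0.034 (edgeR adjusted p = 1.01e-09), or 2.07-fold. It was the largest change among the 4 abundant markers and ranked 177 by p among the genes tested. The 5 listed pseudogene copies of the markers, of which 3 are copies of CD24, held 1 count in all libraries together.

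Of the 8 CD24 transcripts 2 reached 1% of the gene's counts. CD24-201 held 95.6% ± 0.162 of them in PC9 and 97.3% ± 0.772 in PSPC9. It rose from 207, 201 and 209 CPM to 432, 430.3 and 415 CPM, without overlap, by a log2 fold change of 1.05 with a standard error of 0.031 (adjusted p = 3.47e-05). CD24-204, which begins at an exon farther upstream and has an annotated coding part of the same length, 240 bases, ran at 6.79, 6.46 and 8.70 CPM in PC9 and at 6.47, 6.62 and 6.93 CPM in PSPC9. Its groups overlapped, with a log2 fold change of -0.13 and a standard error of 0.153 (adjusted p = 0.649). Its share of CD24 counts was 3.40% ± 0.505 in PC9 and 1.53% ± 0.0736 in PSPC9, but the usage of CD24 transcripts did not pass the test (adjusted p = 1.00).

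Because nearly all CD24 counts belonged to the transcript with the downstream start, the sequence before that start is shown. The window has 200 bases from 225 to 26 bases upstream of the annotated start of CD24-201, at chr6:106974755-106974954 on the minus strand of hg38, and lies in an intron of CD24-204. Capitals mark GC boxes, the letters GGGCGG on either strand.
CD24, upstream of the CD24-201 start: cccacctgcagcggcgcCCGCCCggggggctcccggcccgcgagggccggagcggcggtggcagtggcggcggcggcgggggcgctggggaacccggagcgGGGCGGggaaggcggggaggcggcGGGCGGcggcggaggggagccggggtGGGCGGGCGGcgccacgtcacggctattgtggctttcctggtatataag

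This window is 81.0% G and C, beside a median of 59.0% over the 200 bases before the starts of 35116 RefSeq promoters. It holds 5 GC boxes, the last 2 of which overlap, and 40.1% of those promoter windows hold at least 1. The exact letters TATAAA, a form of the TATA box, were not in it on either strand, and 8.59% of the promoter windows hold them. Other forms of the TATA box were not searched for, and the window ends in the letters tatataag. The RefSeq promoter window of CD24-204, 300 bases at chr6:106975416-106975715 on the minus strand (GRCh38.p14), is 73.7% G and C and held neither motif. Such matches describe letters and no binding was measured.

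The list of 8 genes around CD24 held genes of its ligands SIGLEC10 and SELP and of SRC family kinases by which it signals. It also held NDRG2 and GPI, which are neither ligands nor such kinases. Of the 6 tested, 3 rose, 1 fell and 2 did not pass, so 66.7% were called beside 56.8% of all genes. FYN rose most, from 47.7 ± 0.871 to 127 ± 2.53 CPM (log2 fold change 1.41, adjusted p = 3.10e-10). YES1 rose by 0.32 and LYN by 0.23, and NDRG2 fell by 0.53 on the log2 scale. SRC (0.21, adjusted p = 0.0106) and GPI (0.14, adjusted p = 0.0113) were just outside the limit, and both passed it in DESeq2, with DESeq2 size factors, with no filter, with the replicate block and without PC9 library 2. The receptor gene SIGLEC10 had 13 counts and SELP 4 over all 6 libraries.

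**Figure D4:**
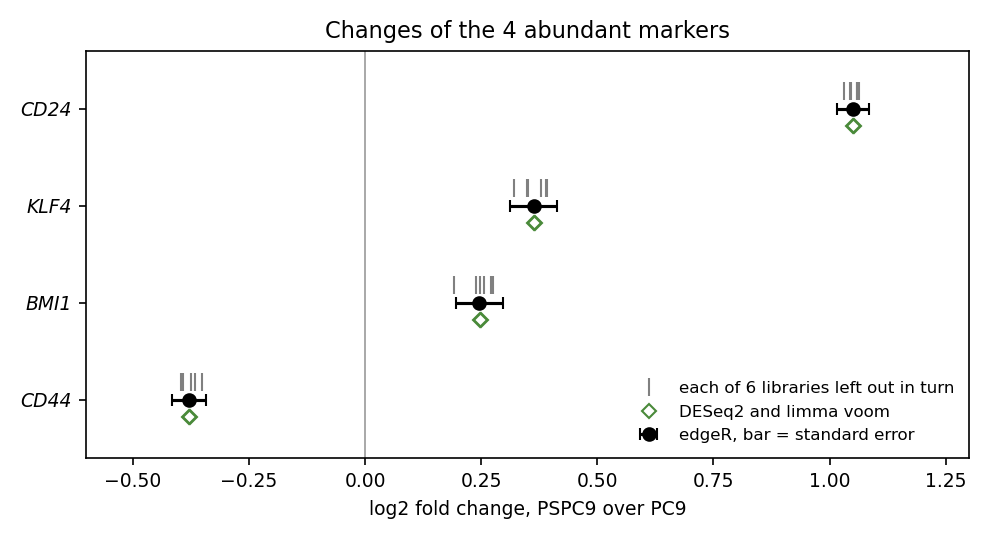
Log2 fold change of the 4 abundant markers, PSPC9 over PC9, with its standard error in edgeR (black), the values from DESeq2 and limma voom (diamonds) and those with each library left out (ticks). CD24, KLF4 and BMI1 lie above 0 and CD44 below 0 under each of these.

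PROM1 encodes CD133, a pentaspan protein of membrane protrusions and a marker of stem cells in many tissues. The gene (ENSG00000007062, chr4:15963076-16084378, minus strand, hg38) had 0 counts in each PC9 library and 0, 1 and 1 counts in PSPC9 libraries 1, 2 and 3. Over its 20 listed transcripts the 2 counts belonged to a retained-intron entry. A level of 3 counts, which would be between 0.0860 and 0.102 CPM in 1 library, was reached in none, so a difference was not detectable at this depth. Among relatives and partners of the protein, PROM2, the other prominin, fell from 158 ± 8.09 to 78.2 ± 3.57 CPM (log2 fold change -1.01, adjusted p = 2.21e-08). HDAC6 and TTYH1 fell by 0.56 and 0.76, and TTYH2 and TTYH3 did not pass. 

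KIT, the receptor of stem cell factor, had 0 counts in all 6 libraries over its 4 listed transcripts (ENSG00000157404, chr4:54657267-54740783, plus strand, hg38). Of the 196970337 counts in all libraries together, 3 would be 0.0152 CPM, the upper limit that a count of 0 allows for counting error. KITLG, the gene of its ligand, had a log2 fold change of 0.09 and did not pass. Of 16 tested genes of the KIT pathway, 5 rose, 5 fell and 6 did not pass, so 62.5% were called beside 56.8% of all genes. The targets and feedback genes of ERK signalling fell furthest, with DUSP6 at 20.01 ± 0.871 CPM in PC9 and 1.56 ± 0.181 in PSPC9, ETV1 at 8.97 ± 0.548 and 0.617 ± 0.120, and SPRY4 at 11.1 ± 0.594 and 1.72 ± 0.236. SH2B3, an adaptor that restrains receptor signalling, rose by 0.81.

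THY1 (CD90), a lipid-anchored surface protein of mesenchymal cells and neurons, had 2 counts, both in PC9 library 3, and none in PSPC9 (ENSG00000154096, chr11:119415476-119424985, minus strand, hg38). Its groups cannot be compared at this depth. Of 9 tested partners 3 rose and 2 fell, so 55.6% were called beside 56.8% of all genes. The integrin genes ITGAV and ITGAM, whose products take part in receptors that bind THY1, rose by 1.27 and 3.15, while ITGB5 fell by 0.44. CAV1, the caveolae protein, fell from 1216 ± 22.6 to 634 ± 6.07 CPM.

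NGFR, the low-affinity neurotrophin receptor, marks neural crest stem cells and tolerant states of melanoma. The gene (ENSG00000064300, chr17:49495293-49515008, plus strand, hg38) had 2, 3 and 1 counts in PC9 libraries and 8, 7 and 3 in PSPC9 libraries. By level the highest PC9 library, at 0.0881 CPM, and the lowest PSPC9 library, at 0.0878 CPM, overlapped. The ratio of summed counts per library size was 3.11, with a 95% exact interval of 1.18 to 9.58 that covers counting error only. NGFR did not pass the filter, and with no filter its log2 fold change of 1.65 with a standard error of 0.739 missed the limit (edgeR adjusted p = 0.0799). Of 10 tested genes in a list of neurotrophins and partners of NGFR, 6 rose, 2 fell and 2 did not pass. The called share was 80% beside 56.8% of all genes. SORT1, which forms a receptor with NGFR for the precursor of nerve growth factor, rose from 43.4 ± 0.752 to 113 ± 1.64 CPM, and BDNF, a ligand, rose from 17.7 ± 0.570 to 32.4 ± 1.22 CPM. MAGED1, an intracellular partner of NGFR, fell by 0.75 on the log2 scale.

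LGR5 is the R-spondin receptor that marks stem cells of the intestine and the hair follicle. The gene (ENSG00000139292, chr12:71439798-71586310, plus strand, hg38) had 1, 0 and 0 counts in PC9 libraries and 23, 18 and 17 in PSPC9 libraries. As levels these were 0.0291 CPM in PC9 library 1 against 0.788, 0.572 and 0.497 CPM in PSPC9, so every PSPC9 library exceeded every PC9 library. The ratio of the summed counts, 58 against 1 with library size taken into account, was 60.2, with a 95% exact interval of 10.4 to 2417 for counting error. The gene passed the filter on low counts through the PSPC9 libraries alone, so its test result (edgeR adjusted p = 2.58e-05) is a description. Its fitted log2 fold change of 5.51 depends on the prior count and became 7.33 without PC9 library 1, which held the single count. At 0.288 ± 0.0887 TPM the level in PSPC9 stayed far below the 4 abundant markers.

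Among other genes of the R-spondin and Wnt pathway, LGR4, LEF1, LRP5, ZNRF3 and FZD5 were measured at higher levels than LGR5. Of 17 listed, 12 were tested, 4 rose, 2 fell and 6 did not pass, so 50% were called beside 56.8% of all genes. The R-spondin genes RSPO1, RSPO2 and RSPO4 were at 0, and RSPO3 had 2, 1 and 0 counts in PC9 libraries and 2, 0 and 1 in PSPC9 libraries. LGR4, a close relative of LGR5 that also binds R-spondins, fell from 71.2 ± 2.49 to 59.0 ± 1.28 CPM (log2 fold change -0.27, adjusted p = 1.91e-04). LEF1, a transcription factor of the Wnt pathway, rose from 6.88 ± 0.421 to 12.6 ± 1.05 CPM. LRP5, a Wnt coreceptor, fell by 0.43, whereas ZNRF3, which removes Wnt receptors from the membrane, and the receptor FZD5 rose by 0.32 and 0.30. The call of FZD5 was lost without PSPC9 library 1.

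KLF4 is a zinc finger transcription factor of differentiating epithelium and one of the factors used to reprogram cells to pluripotency. The gene (ENSG00000136826) lies on the minus strand at chr9:107484852-107490482 (hg38). Its level was 40.2, 44.4 and 43.9 CPM in PC9 libraries and 56.2, 53.0 and 56.1 CPM in PSPC9 libraries. The groups did not overlap, and the mean rose from 42.8 ± 2.26 to 55.1 ± 1.80 CPM, a log2 fold change of 0.36 with a standard error of 0.051 (edgeR adjusted p = 7.82e-05). The main transcript of 3 tested, KLF4-201, went from 36.4 ± 2.97 to 47.6 ± 3.36 CPM with an edgeR adjusted p of 0.0267, outside the limit, and passed it in DESeq2 (adjusted p = 8.44e-05). The other 2 passed in neither tool.

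KLF4 was one of several members of its family to change, in both directions. Of 13 other KLF genes tested 5 rose, 6 fell and 2 did not pass, so 84.6% were called beside 56.8% of all genes. KLF11, KLF6 and KLF13 rose by 1.03, 0.78 and 0.76. KLF5, which acts in proliferating epithelium, fell from 133 ± 8.32 to 86.3 ± 3.09 CPM, and KLF8 fell by 0.75 on the log2 scale.

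BMI1 is a subunit of Polycomb repressive complex 1 (PRC1), which modifies histone H2A at silenced genes and keeps stem cells from senescence. The gene (ENSG00000168283) lies on the plus strand at chr10:22321099-22331484 (hg38). Its level was 66.1, 58.6 and 65.8 CPM in PC9 libraries and 76.4, 75.4 and 74.2 CPM in PSPC9 libraries. The groups did not overlap, with PC9 library 2 the lowest, and the mean rose from 63.5 ± 4.26 to 75.3 ± 1.12 CPM. The log2 fold change of 0.25 with a standard error of 0.051 was the smallest among the called markers (edgeR adjusted p = 0.00136). A read-through gene, COMMD3-BMI1, shares exons with it and had between 177 and 316 counts per library. With its counts added, a choice made after seeing the data, the log2 fold change was 0.23 (adjusted p = 0.00437). Of 5 tested BMI1 transcripts the main one, BMI1-201, went from 58.0 ± 3.91 to 68.0 ± 2.19 CPM with an edgeR adjusted p of 0.0564 and a DESeq2 adjusted p of 0.00194. The other 4 passed in neither tool.

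The other subunits of PRC1 were called in both directions. Of 19 tested, 4 rose, 5 fell and 10 did not pass, so 47.4% were called beside 56.8% of all genes, and 3 in place of 5 fell without PC9 library 3, PSPC9 library 1 or PSPC9 library 3. CBX7, a chromodomain subunit, fell from 33.3 ± 1.57 to 14.3 ± 0.412 CPM, whereas the related CBX2 rose by 0.33. PCGF2, the paralogue of BMI1 that can take its place in the complex, fell from 54.0 ± 1.297 to 39.2 ± 2.56 CPM, and PCGF1 fell by 0.53 on the log2 scale.

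A list of 28 other markers of stem-like cells gave 27 genes in the table and 21 tested. Of these 6 rose, 10 fell and 5 did not pass, so 76.2% were called beside 56.8% of all genes, with a median log2 fold change of -0.09 beside -0.01 over all genes. ALDH1A3, a retinaldehyde dehydrogenase behind the enzyme activity used to sort such cells, rose from 563 ± 5.35 to 1076 ± 5.07 CPM, whereas its relative ALDH1A1 fell from 9.42 ± 0.872 to 0.532 ± 0.123 CPM. DCLK1, a tuft cell kinase, rose from 2.41 ± 0.385 to 22.2 ± 0.988 CPM, and the drug efflux pump ABCG2 from 29.6 ± 0.483 to 54.7 ± 0.518 CPM. NT5E (CD73) fell from 170.1 ± 5.09 to 37.1 ± 0.439 CPM.

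**Figure D5:**
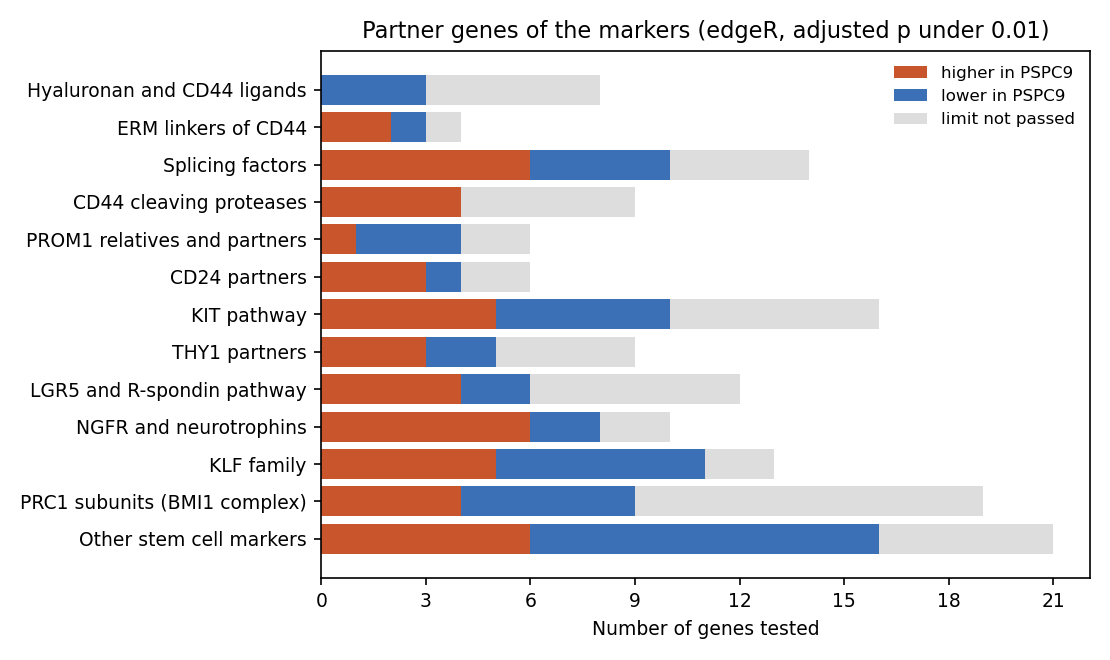
Number of genes tested in each of 13 lists of partners and relatives of the markers, as horizontal bars divided into genes called higher (orange), called lower (blue) and not called (grey) in PSPC9, in edgeR with TMM normalization. In 11 of the 13 lists genes were called in both directions, whereas the calls in the hyaluronan list were all lower and those in the list of CD44 proteases all higher, the latter not under every alternative.

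The genes with the pattern most like a marker over the 6 libraries were found by the smallest root mean square distance between log2 CPM profiles, each centred on its own mean. Among 12283 genes compared, FSTL1, SLC25A4 and TTL were nearest to CD24, at 0.0183, 0.0197 and 0.0227, where the median gene was at 0.532. Their log2 fold changes were 1.03, 1.08 and 1.04. CETN2, DFFA and HACD3 were nearest to CD44, at 0.0107, 0.0130 and 0.0149 with a median of 0.240, and their log2 fold changes were -0.38, -0.36 and -0.39. For PROM1, whose profile is nearly flat at 0 to 1 counts, the nearest genes were ARHGAP33, SSSCA1 and POM121B at distances of 0.0966, 0.107 and 0.114, which says little about PROM1.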

How the data were processed

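Bulk poly-A RNA-seq of 3 PC9 and 3 PSPC9 libraries was used, grouped by the sample labels. Per the labels and the paper, the authors assigned reads to Ensembl 96 transcripts of GRCh38.p13 with Kallisto 0.46.1, listed beside Sleuth 0.30.0 in the submitters' processing notes. The authors deposited estimated counts for each gene symbol and each transcript, whole numbers that were not normalized. How strand was handled is not given in the sources used here, and genes on the opposite strand overlap exons of CD44, THY1, LGR5, NGFR and KLF4, so that reads of either cannot be told apart. The uncertainty of dividing reads between similar transcripts enters no test.

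Counts were filtered with filterByExpr, normalized with TMM and compared by edgeR 4.0.16's quasi-likelihood test in R 4.3.3, with Benjamini-Hochberg adjustment over all genes or transcripts tested and a limit of 0.01. The standard error is the size of the log2 fold change divided by the square root of F. Usage was tested with diffSpliceDGE and Simes p-values. The study's Sleuth test, with further libraries that were not analysed here, was not run. TPM and positions came from GENCODE 44 on hg38, matched by identifier for 167067 of 188753 transcripts with 95.8% of counts. Nearness of profiles used a prior count of 2 and genes with a mean log2 CPM above 1.

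The markers, partner lists and cell type lists were chosen with earlier results of these data known. All 9 markers are named, with CD44 and CD24 transcripts holding at least 1% of their gene, up to 5 called genes of smallest p per list, and all genes of lists with 6 or fewer tested. ESRP2, TRA2B, KITLG, CD44-236 and the R-spondin genes fall outside this rule and are named after their values were seen. Some genes that the rule selects are not reported here. Per the paper, the authors combined 9 treated cultures into 3 PSPC9 replicates, so p-values measure the spread between pools on that side and between single cultures in PC9. Libraries of a group differed by more than sampling noise (chi-square per degree of freedom 3.53 to 21.1) and all were kept. The floor of 3 counts and 95% exact intervals cover counting error only. The scripts were tested on simulated data. Alternatives were other normalizations, filters, tools, limits, a replicate block, counts summed from transcripts and each library left out, with CD44-218 left out of the usage test as one added after seeing the data, and with DESeq2 1.42.0 and limma 3.58.1. Figures were drawn with matplotlib.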

Additional observations from a re-analysis of the deposited data

How the results depend on the processing

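Over all results and alternatives 1849 values counted as the same, 20 gained and 68 lost the call. A further 79 counts or shares moved by more than 1.5 times or 1 SD. Among fold changes past the limit in either setting, 0 reversed in direction. A fold change outside the limit in both settings counted as the same even where its sign changed, as for RDX (-0.02 to 0.08). CD24, CD44, KLF4 and BMI1 stayed past the limit in every alternative, with the exception of a limit on fold change. A limit on fold change above 2 removed CD44 (-0.38), KLF4 (0.36) and BMI1 (0.25) and left 1691 genes of the 8307 called. LGR5 also stayed past the limit where it was tested. It had enough counts only in the PSPC9 libraries, so its calls are a description. Leaving out each library in turn gave 7054 to 8407 called genes, and log2 fold changes of 1.03 to 1.06 for CD24, -0.40 to -0.35 for CD44, 5.06 to 7.33 for LGR5, 0.32 to 0.39 for KLF4 and 0.19 to 0.28 for BMI1. Without LGR5, 4 markers were called. Scaling by library size alone moved the median of all genes to -0.06 and called 3604 genes higher and 4652 lower.

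Counts of transcript calls depended on the tool. Of transcripts, 4252 were called with all libraries, 1549 to 2649 with each left out and 11145 with DESeq2. Genes with changed transcript usage numbered 198 by Simes and 428 by the gene-level F test, and 132 to 211 with each library left out. The adjusted p for usage of CD44 transcripts stayed at or under 1.05e-04 and that of CD24 at or over 0.583 throughout, CD44-218 left out included. The call of CD44-206 was kept only in DESeq2. CD44-218 and CD44-231 gained a call in DESeq2, and CD44-218 also without PC9 library 1.

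The labels give both groups the replicate numbers 1 to 3. Deviations of same-numbered libraries from their group means correlated at 0.201, 0.0355 and 0.0732, all positive but not all above 0.1. Library 2 of PC9 correlated best with library 3 of PSPC9. Centring within groups of 3 ties these correlations to each other, so they cannot decide whether same-numbered libraries were paired. With the replicate block 8671 genes, 813 transcripts and 98 genes by usage were called, the last with CD44 at an adjusted p of 6.30e-06.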
